A study of Cristatella mucedo with 12 samples.

Results

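Elongated colonies of the freshwater bryozoan Cristatella mucedo were cut into end and middle parts, and the comparison of those parts covers 4 of the 12 bulk RNA libraries of the study. The end part gave the libraries numbered 1 and 3 and the middle part those numbered 2 and 3, here called end 1, end 3, middle 2 and middle 3. They were chosen by their labels alone, and 18085 of the 35949 gene models in the table had enough counts to be tested. The 12 libraries are of one wildtype isolate, SBPEP1. Mature colonies were taken from a stream and held in an aquarium at room temperature, and polyadenylated RNA was sequenced. The other mature libraries, used here to estimate the spread and for values set side by side, are 2 of the central zone (central 1 and central 2) and 2 of the edge zone (edge 2 and edge 3) from another way of cutting a colony. Single libraries of statoblasts, straight from the freezer and after 2, 4 and 6 days of differentiation, give only side values. How many colonies went into a library, and whether replicates came from separate colonies, is not stated, and a p-value here measures the spread between libraries, which may be technical.

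Bryozoans are colonies of small filter-feeding zooids that arise by budding, and each zooid carries a crown of ciliated tentacles. In Cristatella the colony is a soft, gelatinous mass that can creep, new zooids bud towards its margin, and older zooids degenerate towards the midline. Colonies lengthen as they grow and can divide, and they form statoblasts, the dormant capsules that survive winter. Each library mixes whole tissue, so fewer cells of a type and less RNA per cell cannot be told apart. Apart from 16 mitochondrial models, the identifiers in the table carry no gene names, so neither the tissue nor any cell type could be checked against markers, and nuclear models are given by contig, named as in the table (ctg159), and base positions. The assembly behind those positions is not named in the sources used here.

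The library totals were 14787598 counts in end 1, 22863726 in end 3, 24070066 in middle 2 and 18970705 in middle 3. A floor of 3 counts corresponds to 0.203, 0.131, 0.125 and 0.158 CPM, the counts of a model scaled to a common library total, in that order, which covers counting error only. The number of models with at least 10 counts followed the totals, with 16292 in end 1, 17322 in end 3, 17539 in middle 2 and 17082 in middle 3. The 200 most abundant models of each library took 43.8 to 48.2% of its counts.

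The libraries did not pair off by part. Taking models with at least 50 counts in the higher library, 1052 models differed at least 2-fold between end 1 and end 3, against 281 between middle 2 and middle 3. End 3 stood closer to both middle libraries than to the other end library, with 313 models apart from middle 3 and 647 from middle 2. End 1 differed from middle 2 at 2144 models and from middle 3 at 2185. The library that end 1 resembled most was central 1 from the other dissection, with 132 models apart, the fewest of all 28 pairs of mature libraries, although both carry their own labels and their counts differed beyond sampling noise (chi-square per model 12.5, against 60.1 between the end libraries). The label of end 1 is kept here, and the counts of calls and the models named by identifier are also given without it.

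**Figure D1:**
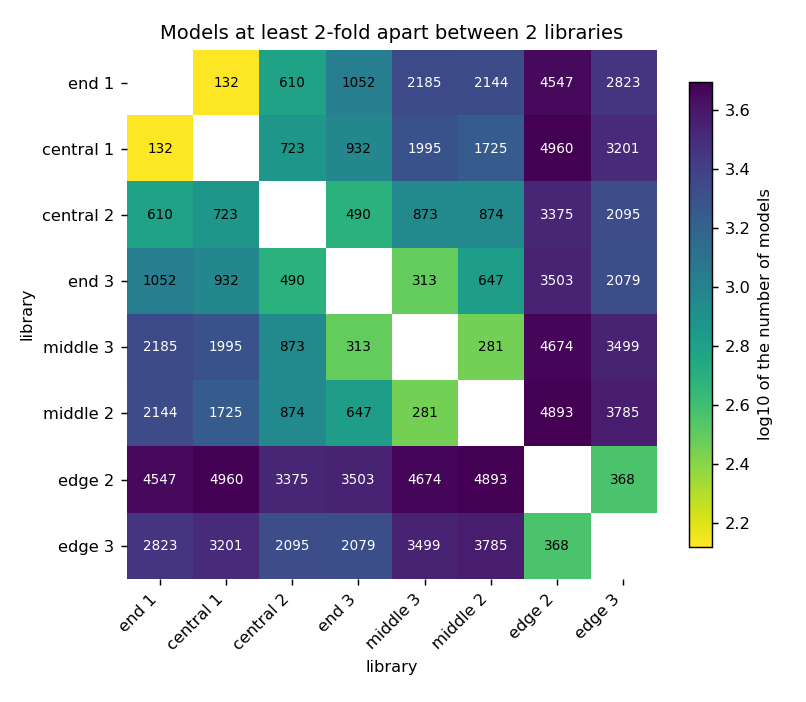
Number of gene models at least 2-fold apart between each 2 of the 8 mature libraries, among models with at least 50 counts in the higher one, with colour on a log10 scale. End 1 and central 1 differ at 132 models and end 3 and middle 3 at 313, whereas the 2 end libraries differ at 1052.

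The same order appeared in the spread of the log2 difference over the 18085 models tested. Its SD was 0.64 between the end libraries and 0.47 between the middle libraries. Between the parts it was 0.79 for end 1 against middle 2 and 0.82 against middle 3, but 0.55 for end 3 against middle 2 and 0.50 against middle 3. Among the 3726 models whose mean log2 CPM was 5 or more, where counting error is small, the SD was still 0.49 between the end libraries and 0.38 between the middle libraries, and 0.45 between end 3 and middle 3. End 3 therefore differed from middle 3 no more than the end libraries differed from each other, at high as at low levels.

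Few models differed between the parts beyond this spread, and nearly all of them were higher at the ends. Of 18085 models tested with edgeR's quasi-likelihood test, 59 rose in the end part at a Benjamini-Hochberg adjusted p under 0.05, which is 0.326% of those tested, and 3 fell, which is 0.0166%. Without adjustment 2341 models had a p under 0.05, 1456 of them higher at the ends and 885 lower. The remaining 17864 models of the table had too few counts to be tested.

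**Figure D2:**
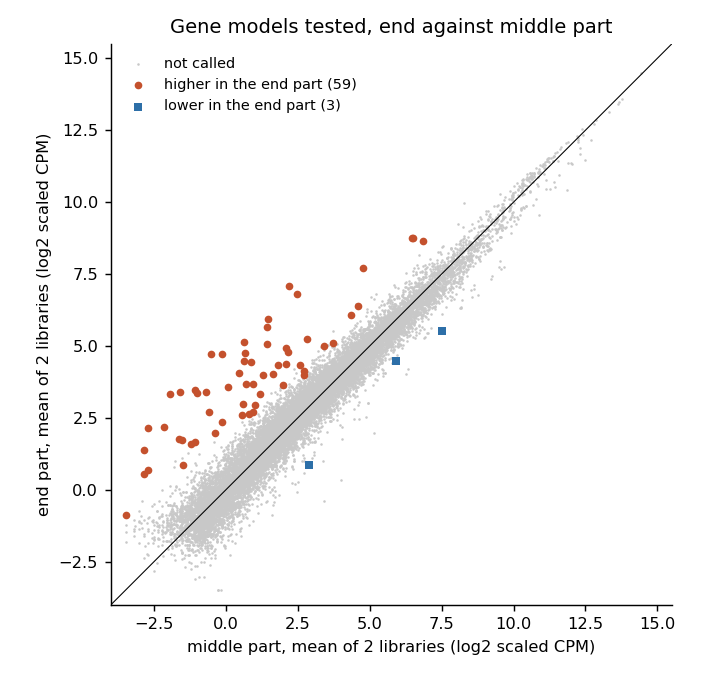
Mean level of each tested gene model in the middle part (x) and the end part (y), as log2 CPM scaled by TMM factors, with 2 libraries per part. The 59 models called higher in the end part lie well above the diagonal and the 3 called lower lie below it, while the bulk of the 18085 models follows the diagonal.

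The 59 models that rose lay on 37 contigs. Fitted log2 fold changes ran from 1.31 to 6.36 with a median of 2.91, while the median of all models was 0.01. The highest fitted values belong to models nearly without reads in the middle part and depend on the default prior count of the edgeR fit. Among models with more than 3 middle counts the largest was 5.19. At least a 4-fold rise was fitted for 48 models and at least a 16-fold rise for 18, of which 15 had more than 3 counts over the middle libraries together. One model on contig ctg211, at 299014 to 313491, had 8 counts in end 1 and 11 in end 3 and none in either middle library, which makes it at least 7.24-fold higher against a floor of 3 counts over the group. With that model set to its bound the median of the 59 was still 2.91.

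In all 59 models both end libraries lay above both middle libraries. Such a separation by itself was common, since the end libraries lay above both middle libraries in 4750 tested models (26.3%) and below both in 3373 (18.7%). End 1 was the higher end library in 32 of the 59 and end 3 in 27. The call itself favours models with both end libraries high and close together, so the counts for end libraries only describe the list. The end libraries were within 2-fold of each other in 53 of the 59, against 89.8% of all tested models. The middle libraries were less even, being within 2-fold in 33 of the 59 against 96.0% of all tested models. Middle 2 was above middle 3 in 41 and below it in 17 of the 59, while over all tested models middle 2 was the higher in 36.5%.

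The longest run of neighbouring models that rose was on contig ctg159, where 6 loci between 620806 and 719526 were called. That stretch holds 7 models, 6 of them tested. By definition a run has no tested locus left uncalled. On the whole contig 26 models were tested and the same 6 rose. At 643898 to 645858 the level was 120.4 CPM in end 1, 128.2 in end 3, 10.2 in middle 2 and 3.44 in middle 3. At 648882 to 652367 it was 57.7, 78.8, 5.49 and 1.46 CPM in the same order, and at 620806 to 631561 it was 53.5, 59.5, 4.13 and 1.91 CPM. The end libraries agree closely at these loci and stand far above both middle libraries, with middle 3 the lowest each time.

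The other 3 loci of the run repeat that order at lower levels. The locus at 710024 to 711847 had 39.2 CPM in end 1, 35.4 in end 3, 4.34 in middle 2 and 1.78 in middle 3. The locus at 717467 to 719526 had 22.6, 26.1, 3.06 and 1.12 CPM, and that at 682186 to 693419 had 13.9, 12.4, 1.60 and 0.672 CPM. Their fitted log2 fold changes ran from 3.43 to 4.19 over the run, with a median of 3.81. The median was 3.86 without end 1 and 3.76 without end 3, but 4.69 without middle 2 (4.26 to 5.54) and 3.25 without middle 3 (2.87 to 3.66), so the size of the rise depends on which middle library is used. The adjusted p of edgeR's test for these loci was between 0.000216 and 0.000701, and it stayed at 0.0110 or under for each of them in all 26 other settings tried, those without end 1 or without end 3 included.

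**Figure D3:**
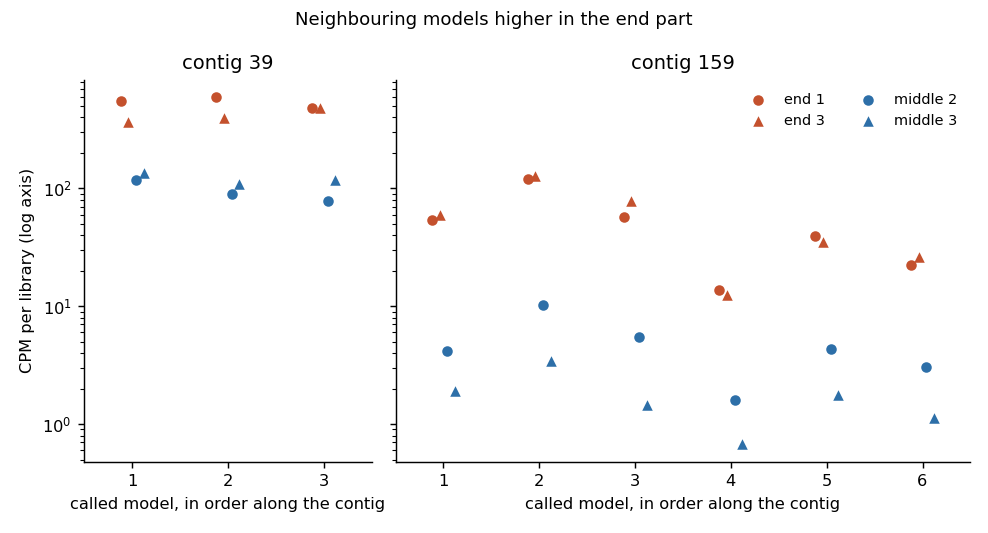
CPM of each called model of the runs on contigs ctg39 and ctg159 in the end (red) and middle (blue) libraries, on a log axis, in order along the contig. On contig ctg159 both end libraries lie between 12.4 and 128.2 CPM and both middle libraries between 0.672 and 10.2 CPM, and on contig ctg39 the end libraries lie between 367.9 and 595.2 CPM and the middle libraries between 78.7 and 134.6 CPM.

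The run on contig ctg159 was also high at the colony edge and close to absent from statoblasts. Its summed level was 307.3 CPM in end 1 and 340.3 in end 3, 28.9 in middle 2 and 10.4 in middle 3, 246.7 and 236.1 in the central libraries, and 713.4 and 969.5 in the edge libraries. The central zone thus lay far nearer to the ends than to the middle part. In statoblasts the sum was 0 in the freezer and day 2 libraries, 0.553 CPM on day 4 and 0.128 CPM on day 6.

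A second run of 3 loci on contig ctg39, between 805612 and 901400, held the models with the highest mean level among those that rose. Model g27192 (896710 to 901400) had 483.9 CPM in end 1, 485.6 in end 3, 78.7 in middle 2 and 118.9 in middle 3, or 484.7 ± 1.17 against 98.8 ± 28.4 (SD, n = 2 each). The fitted log2 fold change was 2.26 with an SE of 0.32 (edgeR adjusted p = 0.00387). Model g27189 (871378 to 877048) had 595.2 CPM in end 1, 392.6 in end 3, 88.9 in middle 2 and 108.3 in middle 3, or 493.9 ± 143.2 against 98.6 ± 13.8 (SD, n = 2 each), a log2 fold change of 2.28 with an SE of 0.31 (edgeR adjusted p = 0.00258). Both models overlap a neighbour in the annotation, and the sources used here do not say how reads in shared bases were divided. Of the 4 models tested in this stretch, the one at 876897 to 881057, which overlaps g27189, was not called (edgeR adjusted p = 0.258).

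In both of these models each end library was over 3-fold above each middle library. The third member, at 805612 to 810910, overlaps no other model and moved the same way, with 548.2 CPM in end 1, 367.9 in end 3, 118.1 in middle 2 and 134.6 in middle 3 (log2 fold change 1.81, edgeR adjusted p = 0.0168). Unlike contig ctg159, this run was on in the later statoblast libraries, its summed level being 3.57 CPM in the freezer library, 16.3 on day 2, 248.7 on day 4 and 241.1 on day 6. Without end 1 the log2 fold change was 2.28 for g27192 (edgeR adjusted p = 0.00681) and 1.97 for g27189 (edgeR adjusted p = 0.0112). Without middle 2 neither was called, the adjusted p of edgeR's test being 0.118 for g27192 and 0.0722 for g27189, with log2 fold changes of 2.04 and 2.20. The third member was called in 5 of the 8 fits that left out 1 mature library each, and was lost without end 1, middle 2 or middle 3 (edgeR adjusted p = 0.122, 0.285 and 0.156), with log2 fold changes of 1.52, 1.78 and 1.84.

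Contigs ctg85, ctg101 and ctg229 each held 3 or 4 models that rose, of 125, 77 and 28 tested on them. Of all tested models 0.326% rose. The 3 on contig ctg85 lie far apart, between 1340375 and 1614575, with 33 tested models in that stretch. They sum to 83.6 CPM in end 1, 77.2 in end 3, 10.9 in middle 2 and 9.005 in middle 3. The 4 on contig ctg101 lie between 796513 and 841416, with 5 tested models in that stretch, and sum to 80.9, 56.1, 11.3 and 7.78 CPM in the same order. The 3 on contig ctg229 lie between 33268 and 40619, with 4 tested models in that stretch. They were rare, at 5.32, 6.82, 0.332 and 0.105 CPM in sum, and 2 of them overlap. On each of these contigs the end sums are several times the middle sums, and on ctg101 end 1 is clearly the higher end library.

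Some single models rose as much or from a higher level, and are named here by position after their values were seen. One at 1781523 to 1812077 on contig ctg40, which overlaps a neighbour, had 126.7 CPM in end 1, 183.6 in end 3, 9.15 in middle 2 and 2.60 in middle 3 (log2 fold change 4.64, edgeR adjusted p = 0.00181). One at 10229 to 11338 on contig ctg569 had 22.4, 39.2, 1.30 and 0.325 CPM (log2 fold change 5.13, edgeR adjusted p = 0.000241) and no statoblast reads. One at 4509248 to 4536582 on contig ctg22 had 156.7, 345.0, 18.1 and 48.3 CPM (log2 fold change 2.91, edgeR adjusted p = 0.0168). In the last, unlike the other two, the libraries numbered 3 were the higher of each part, and end 1 and middle 3 stand little more than 3-fold apart.

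Only 3 models fell in the end part. Model g5232 (contig ctg8, 5535442 to 5538988) had 42.9 CPM in end 1, 61.7 in end 3, 244.2 in middle 2 and 159.1 in middle 3, or 52.3 ± 13.3 against 201.7 ± 60.2 (SD, n = 2 each). The fitted log2 fold change was -2.005 with an SE of 0.35 (edgeR adjusted p = 0.0200). It had no counts in any statoblast library.

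Model g28369 (contig ctg50, 559849 to 613680) had 24.0 CPM in end 1, 24.8 in end 3, 66.3 in middle 2 and 64.0 in middle 3, or 24.4 ± 0.576 against 65.2 ± 1.58 (SD, n = 2 each). The fitted log2 fold change was -1.46 with an SE of 0.28 (edgeR adjusted p = 0.0383). Libraries of one part are nearly equal here and the parts lie far apart. The remaining model, at 9043825 to 9052080 on contig ctg2, had 2.03 CPM in end 1, 1.86 in end 3, 11.97 in middle 2 and 5.30 in middle 3 (log2 fold change -2.23, edgeR adjusted p = 0.0315). Its statoblast levels were higher than in any mature library, at 15.0 CPM in the freezer library, 69.0 on day 2, 107.0 on day 4 and 132.1 on day 6. None of the 3 was called in more than 4 of the 8 fits that left out 1 mature library each. Without end 1 the log2 fold change was -1.75 for g5232 (edgeR adjusted p = 0.207), -1.42 for g28369 (edgeR adjusted p = 0.236) and -2.28 for the model on ctg2 (edgeR adjusted p = 0.118). When the central and edge libraries were left out as well, all 3 were called without end 1.

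Most of the models that rose at the ends also rose at the colony edge. Edge and central libraries are not in the contrast of end and middle part, though they share its estimate of the spread. Of the 59, 49 were called higher at the edge than in the central zone and none lower by the same edgeR fit, while 12.8% of all tested models were called higher there (2311) and 10.9% lower (1979). The median log2 fold change from central zone to edge was 1.71 over the 59 and -0.01 over all tested models. Both edge libraries lay above both end libraries in 43 of the 59, against 14.5% of all tested models, and below both in 1. In all 59 both central libraries lay above both middle libraries, against 20.4% of all tested models; the 59 were chosen for low middle levels, which bears on this count.

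The 3 models that fell had their highest mean level among the mature zones in the middle part and their lowest at the edge. They were chosen for middle levels above the end levels, which bears on this order. The step from central zone to edge was called for 2 of them. Model g28369 fell from central zone to edge, with a log2 fold change of -2.27 (edgeR adjusted p = 0.000257), from 29.2 and 40.5 CPM in the central libraries to 6.15 and 4.92 CPM at the edge. Model g5232 fell as well, by 1.17 on the log2 scale (edgeR adjusted p = 0.0260), from 45.4 and 67.8 to 21.9 and 16.9 CPM. For the model on contig ctg2 the central libraries had 1.95 and 1.62 CPM and the edge libraries 1.09 and 1.12 CPM (edgeR adjusted p = 0.641), and this step was not called.

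Few of the 59 models had many statoblast reads. At least 10 counts were present for 13 of them in the freezer library, 15 on day 2, 19 on day 4 and 21 on day 6, against 56.5, 56.5, 62.4 and 67.0% of all tested models. No statoblast library had a count for 14 of the 59 (23.7%), against 9.46% of tested models. Their median span in the annotation was 5299 bases (quartiles 2411 and 12107.5), against 10366 (3008 and 23027) over all tested models. The share of models that overlap another was alike, at 30.5% of the 59 and 32.1% of all tested models. These shares are descriptions of the list and were not tested.

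Leaving out an end library changed the number of calls, and by far the most when end 3 was left out. A fit with 1 library in a part assumes that this library varies like those of the other groups. Without end 1, 46 models rose (0.243% of 18906 tested) and none fell (0%), and 41 of the 59 were among the 46; at an unadjusted p under 0.05, edgeR's test then had 612 higher and 286 lower. Without end 3, 742 models rose (3.92% of 18934 tested) and 337 fell (1.78%), and these included all 59 and all 3. Among the 4 end and middle libraries alone, edgeR called 53 models, 106 without end 1 (77 higher and 29 lower) and 2844 without end 3.

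At the models called without end 3, end 1 and end 3 stood apart at the median. The 742 models had median scaled levels of 13.9 CPM in end 1 and 7.64 CPM in end 3, beside 5.03 in middle 2 and 4.92 in middle 3. The 337 had 10.3 CPM in end 1, 21.5 in end 3, 28.2 in middle 2 and 28.9 in middle 3. End 3 lay between end 1 and the middle libraries in both lists, an order that the choice of the lists on end 1 favours. The same lists also parted the central libraries, in that central 1 exceeded central 2 in 82.7% of the 742 and 15.1% of the 337, against 52.0% of all tested models. The list of 46 found without end 1 shows no such split of the end libraries, with medians of 11.2 CPM in end 1 and 15.3 in end 3, against 1.99 in middle 2 and 1.04 in middle 3.

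A pair of comparisons that share no end or middle library gives another view. These were end 1 against middle 2 and end 3 against middle 3, chosen after the data were seen. Across the 18085 tested models the log2 differences had a Pearson r of 0.42 and a Spearman rho of 0.46, and across the 3726 at a mean log2 CPM of 5 or more they had 0.60 and 0.65. The models of a library share its depth and composition, so no p is given. With the middle libraries exchanged, r over all tested models was 0.28 and rho 0.21. Across the 3726 they were 0.36 and 0.24. End 1 exceeded middle 2 at least 2-fold at 1709 models and end 3 exceeded middle 3 at 405, with 180 in common, which is 10.5% of the first and 44.4% of the second.

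Tested separately, with the spread taken from the central and edge libraries, end 1 against middle 2 gave 237 calls among 18704 models tested, 78 of them lower (0.417%) and the others higher (0.85%). End 3 against middle 3 gave 39 higher (0.208% of 18726) and 4 lower (0.0214%). The lists of higher models had 30 in common, which is 18.9% of the longer and 76.9% of the shorter, on 20 contigs, and all 30 are among the 59. The lists of lower models had none in common. The 6 loci of contig ctg159 were called in both. Over the 59, the median log2 difference was 2.71 for end 1 against middle 2 and 2.96 for end 3 against middle 3. The latter was the larger in 38, although over all models end 3 and middle 3 were much the closer pair. The 59 were called on these same libraries. Their rise in both pairs and their overlap with the lists above therefore follow largely from that choice.

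**Figure D4:**
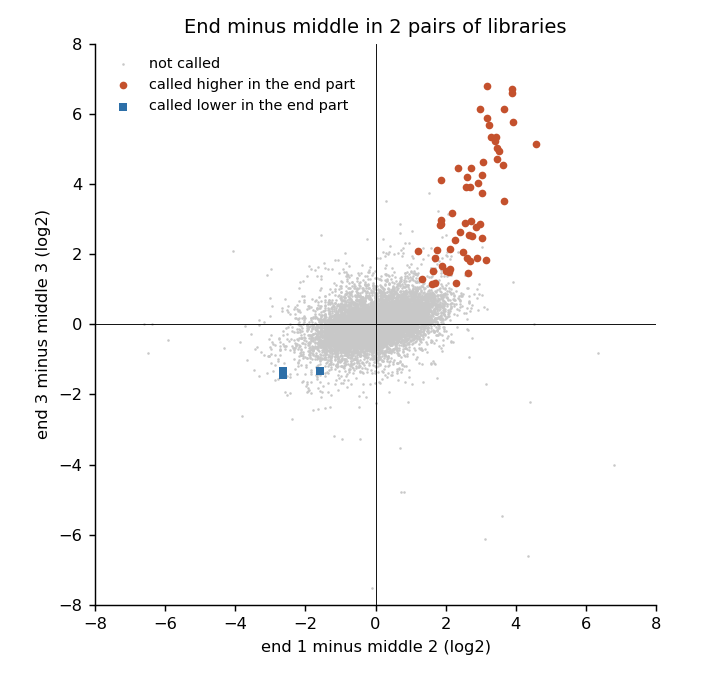
Log2 difference between end 1 and middle 2 (x) and between end 3 and middle 3 (y) for each tested model, in TMM-scaled CPM. The cloud is wider along x. The 59 models called higher, which were chosen on these same libraries, lie at least 1 log2 unit above 0 on both axes. In 38 of them the y value is the larger.

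Large fitted changes, counted here whether called or not, did not all have end libraries that agreed. At least a 4-fold rise was fitted for 105 tested models, of which 48 were called. Both end libraries lay above both middle ones in 99, and the end libraries were within 2-fold in 73. At least a 4-fold fall was fitted for 44, of which 2 were called, 37 did not overlap and 32 had end libraries within 2-fold. Over all tested models the ends lay above both middle libraries in 26.3% and below both in 18.7%. The end libraries were within 2-fold in 89.8%. Choosing on fold change favours parts that do not overlap. Counts for the uncalled models alone, and the agreement of the middle libraries, are not given here. Fitted falls of this size were fewer than rises, and whether falls were called at another rate than rises was not tested.

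Other models separated the end libraries from each other. Of 9015 models with at least 200 counts in the higher end library and middle libraries within 2-fold of each other, 228 were at least 2-fold higher in end 1 and 265 in end 3, and 3 and 19 were at least 4-fold higher. The largest difference was on contig ctg21, at 563798 to 564890, with 34.2 CPM in end 1, 0.0437 in end 3, 0.291 in middle 2 and 0.158 in middle 3. That model had 0.402 CPM in central 1 and 183.9 in central 2, so it was abundant in 1 library of each of these groups and close to the floor in the other. Of the 10 largest differences, the other 9 were higher in end 3. The limit of 200 counts is met at a lower CPM in end 3, the deeper end library, which bears on these numbers.

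Next came a model on contig ctg91 (1690408 to 1692219), with 0.688 CPM in end 1 and 60.8 in end 3, beside 11.9 and 14.6 CPM in the middle part. A model on contig ctg63 (1554058 to 1576972) had 0.507 CPM in end 1 and 29.5 in end 3, beside 35.5 in middle 2 and 41.7 in middle 3. In it end 3 was near the middle libraries and end 1 was not. On contig ctg42, 3 models between 1542604 and 1610253 were together low in end 1 and high in end 3, at 4.12 and 55.3, 1.59 and 13.2, and 3.37 and 34.9 CPM.

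A pair of models on contig ctg332 showed the same order, with 6.05 and 65.1 CPM at 42566 to 44589 and 11.6 and 118.7 CPM at 16966 to 18993. In all 5 of these models end 3 was above and end 1 below both middle libraries. Models on contig ctg111 (703812 to 713002, 0.169 and 9.01 CPM, overlapping a neighbour) and contig ctg131 (1038487 to 1044383, 1.59 and 14.8 CPM) complete the 10. None was called between the parts.

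Mitochondrial transcripts did not separate the ends from the middle. The mitochondrial genome encodes core subunits of the respiratory chain and of ATP synthase, together with the ribosomal RNAs of the organelle's own ribosomes, and its 16 models lie on contig ctg594. None was called by edgeR's test, none had an unadjusted p under 0.05 (the lowest was 0.149), and DESeq2 and limma with voom called none. Fitted log2 fold changes ran from -0.43 to 0.08, with 12 of the 14 protein-coding models below 0, 2 above 0 and a median of -0.12, while the median of all tested models was 0.01. The sign of that median depends on single libraries, since it was -0.42 without end 1, 0.15 without end 3, 0.36 without middle 2 and -0.56 without middle 3. No protein-coding model had end and middle libraries that did not overlap.

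What did separate the libraries was their share of mitochondrial reads. Protein-coding mitochondrial models took 13.6% of the counts in end 1 (95% Wilson interval 13.57 to 13.60), 8.66% in end 3 (8.646 to 8.669), 14.4% in middle 2 (14.39 to 14.41) and 8.81% in middle 3 (8.793 to 8.819). Thus end 3 and middle 3 were alike and low, and end 1 and middle 2 alike and high. An exact two-sided permutation test of 2 libraries against 2 cannot fall below p = 0.333, so the parts were not tested on this share. Every one of the 14 protein-coding models was higher in end 1 than in end 3 (1.15 to 2.16 times) and higher in middle 2 than in middle 3 (1.24 to 2.60 times). Edge 3 was low as well, at 8.85%, against 12.2% in edge 2 and 14.4 and 14.3% in the central libraries, so the 3 mature libraries numbered 3 had the lowest shares of the 8. A term for the libraries numbered 3 in edgeR's fit gave 65 models higher (0.359% of 18085) and 6 lower (0.0332%). All 59 that rose and all 3 that fell were among them. Without the mitochondrial contig, the same 59 and 3 were called. What part the low share had in the other results was not tested.

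The complexes showed this alike. Among cytochrome c oxidase subunits of the terminal complex, cox1 had 32810 CPM in end 1, 19621 in end 3, 27824 in middle 2 and 20860 in middle 3, and cox3 had 17902, 8278, 20653 and 9142 CPM. Cytochrome b of the complex before it (cob) had 15847, 10121, 18673 and 10490 CPM. In each of them the libraries numbered 3 were low and close together, whichever part they came from.

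Among NADH dehydrogenase subunits, which bring electrons into the chain, nad4 had 8814 CPM in end 1, 6396 in end 3, 9450 in middle 2 and 6383 in middle 3, and nad5, the most even of them, had 6218, 5385, 6490 and 5255 CPM. The ATP synthase subunits atp6 (17088, 11074, 19773 and 11308 CPM) and atp8 (2917, 1477, 3260 and 1253 CPM) were likewise lower in the library numbered 3 of each part. Neighbouring mitochondrial genes can be cut from shared transcripts, so their values are not independent.

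The ribosomal RNAs behaved differently from each other. The small-subunit rRNA rrnS had 4957 CPM in end 1, 3500 in end 3, 6268 in middle 2 and 4717 in middle 3, a log2 fold change of -0.43 with an SE of 0.28 (edgeR adjusted p = 0.540), and -0.69 without end 1. The large-subunit rRNA rrnL had 4469, 5297, 5446 and 5075 CPM, a log2 fold change of -0.15 with an SE of 0.30 (edgeR adjusted p = 0.861). It was the one mitochondrial model in which end 3 exceeded end 1. Since the libraries were enriched for polyadenylated RNA, rRNA levels also depend on how much of it carried a tail.

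**Figure D5:**
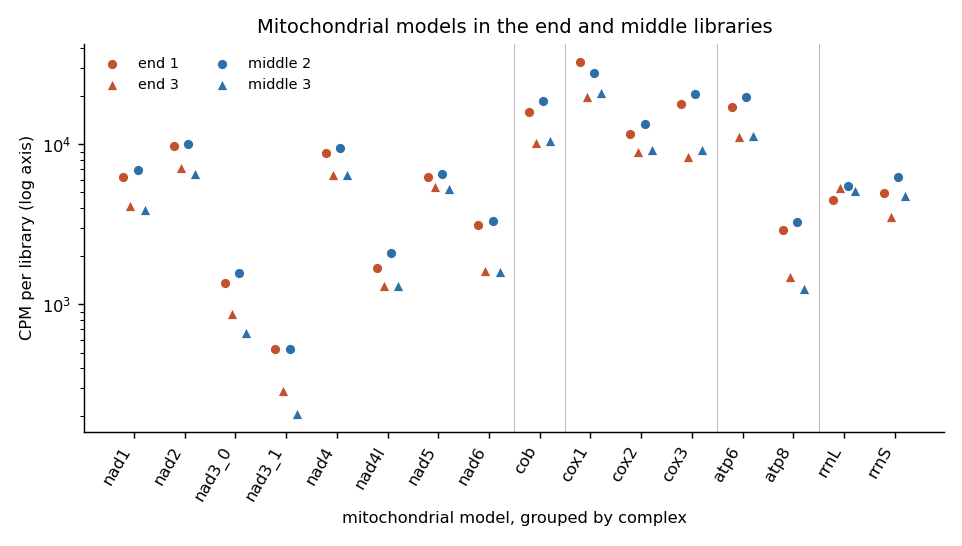
CPM of the 16 mitochondrial models in the end (red) and middle (blue) libraries on a log axis, with circles for end 1 and middle 2, triangles for the libraries numbered 3, and lines between complexes. In each of the 14 protein-coding models the circles lie above the triangle of the same part, and red and blue are not separated.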

How the data were processed

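The values are expected counts for each gene model, which the authors deposited in 1 table without normalization. The submitters' processing notes name HISAT2 2.1.0 and featureCounts 1.5.1. The sources used here do not give the assembly, the annotation or the strand setting. Per the labels' protocols, a directional kit was used and libraries were run paired-end or single-end. Which was run how is not stated. Libraries were grouped by label.

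Expected counts were rounded, which moved no total by more than 0.00408%, and the quasi-likelihood test of edgeR 4.0.16 (R 4.3.3; glmQLFit and glmQLFTest after filterByExpr and TMM) was fitted as 4 group means over the 8 mature libraries, with 4 residual degrees of freedom and Benjamini-Hochberg adjustment over all models tested. The threshold was 0.05. A prior count of 2 was used for log2 scaled CPM, while fitted log2 fold changes used edgeR's default prior count. An SE given here was computed as the size of the log2 fold change over the square root of F, since edgeR gives none. CPM refers to library totals, and scaled CPM to totals times TMM factors. DESeq2 1.42.0 and limma 3.58.1 served as alternatives. Scripts were checked on simulated data. Other values and the plots were made in Python 3.11.15 (scipy 1.17.1, numpy 2.4.6, pandas 2.3.3, matplotlib 3.10.9).

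The comparison, members, regions and lists were chosen with earlier results of these data known. Named identifiers are the 2 models with the highest mean log2 CPM among those called in each direction with parts that do not overlap. Runs are 3 or more neighbouring called loci, overlapping models counting as 1. Models that part the end libraries are the 10 largest differences under the limits given. Marker lists could not be used without gene names. Replicates were not duplicates (chi-square per model 60.1 and 56.8). The alternatives were other scalings, filters, tools and sets of libraries, a replicate block, a term for libraries numbered 3, and each library left out.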

Additional observations from a re-analysis of the deposited data

Results flagged for a closer look

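On contig ctg159, the locus at 620806 to 631561 rose with position in both dissections, but by unequal amounts. Its log2 change from central zone to edge was smaller than that from middle to end part by 2.35, given as -2.35 in the direction of edge minus end, and edgeR's test of this difference in the same fit gave an adjusted p of 0.0272. The edge change was 1.79 and the end change 4.14, and each end and edge library was above the libraries it was compared with. The starting levels were unequal, at 42.9 CPM in central 1 and 43.8 in central 2, but 4.13 in middle 2 and 1.91 in middle 3. At the other loci of the run the difference was also negative, from -1.97 to -0.72, but was not called. The adjusted p of edgeR's test ran from 0.0684 to 0.351 there. Of the 59 models that rose, 8 had this difference called. The share over all tested models is not given here, so this count only describes the list. The 59 were chosen for their end change in the same fit, which favours a negative difference.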

How the results depend on the processing

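The direction of each of the 62 called models was the same in all settings that tested it. Of 482 values recomputed, 432 kept their call or stayed close. Many of these are not independent, since each of the 6 loci of contig ctg159 gave 26 of them. The number of models tested was 18085 in the main fit, 28161 with no filter on low counts and 12282 without overlapping models. Without overlapping models 0.309% were called higher and 0.0163% lower, close to the main 0.326% and 0.0166%. Of the 59, 41 were tested there and 38 stayed called, so the lower count there goes mostly with the fewer models tested. The number of calls was less stable than the direction, staying close in 11 settings and moving in 15. It was 681 with no filter on low counts, 301 with DESeq2, 40 without overlapping models, and 35 to 2844 when 1 library was left out, the highest without end 3 and without the central and edge libraries. Settings chosen after the data were seen gave 237 calls for end 1 against middle 2 and 105 without the libraries numbered 1. The number of the 59 called at the edge was 32 to 49 when 1 library was left out, 32 without central 1 or without edge 2. Of the 59, 24 were called in all 8 fits that left out 1 mature library. With the other mature libraries in the fit, the 3 models that fell were not called without either edge library, end 1 or middle 2, though g5232 kept a log2 fold change of -2.002 without edge 2, -2.001 without edge 3 and -1.59 to -1.75 without middle 2 or end 1. They were called again without end 1 when both libraries numbered 1 were left out. The log2 fold change of rrnL was 0.10 in end 3 against middle 3. Why these values moved was not tested.

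A replicate block over the 8 mature libraries gave 103 calls, 95 higher and 8 lower, with 58 of the 59 among them. Same-numbered libraries of different groups had deviations that correlated between -0.13 and 0.27 across models, so the numbers were not taken to pair the samples.

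Per 100 counts outside the mitochondrial contig, the mitochondrial protein share was 15.9 in end 1, 9.57 in end 3, 17.1 in middle 2 and 9.76 in middle 3. The counts of models at least 2-fold apart depend on the count minimum. At 200 counts they were 521 for the end libraries, 131 for the middle libraries, 1171 and 1234 for end 1 against middle 2 and 3, 379 and 171 for end 3 against middle 2 and 3, and 50 for end 1 and central 1. At 20 counts they were 510 for the middle libraries, 482 for end 3 and middle 3, and 327 for end 1 and central 1. The end libraries stayed further apart than the middle libraries at each minimum. Depth limits rare models, since under 1 CPM in the middle part applied to 21 of the 59.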
